A study of Mus musculus with 10 samples.

Results

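The entries described here are microRNA precursor loci of the mouse, taken from the deposited table of FPKM values (fragments scaled by transcript length and by the mapped fragments of the library). An entry was a member if its gene name began with Mir or Mirlet followed by a digit, did not contain hg, and if 3 or more of the 10 libraries had an FPKM of 1 or higher. The names alone gave 663 entries of 37447, and the threshold left 7: Mir181a-2, Mir24-2, Mir546, Mir215, Mir7-1, Mir1b and Mir695. The threshold used the same values that are given below, so the levels are a description.

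The libraries came from brainstem microglia of mice aged 6 weeks, in 3 groups. LCM_GFP (n = 4, 3 female and 1 male) held GFP expressing microglia cut by laser from sections that had been fixed in paraformaldehyde and frozen, with RNA taken by proteinase K and acid phenol. FACS_GFP (n = 3, 2 female and 1 male) held GFP expressing microglia sorted from dissociated tissue after a Percoll gradient, with RNA taken by TRIzol. FACS_WT (n = 3, all male) held wild-type C57BL/6 microglia sorted in the same way. The labels give neither the strain of the GFP mice nor the promoter of the reporter, and isolation method, fixation and RNA extraction cannot be told apart. The cDNA was amplified in every library (Ovation RNA-Seq), sheared and size-selected. Replicates are separate samples in the labels, which do not say how many animals each holds, so p-values measure the spread between these samples.

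The 10 libraries summed to 393949 to 632854 FPKM, and the file used here gives no read counts. The 18 microglia markers checked were all at 1 FPKM or more in at least 1 library of every group, and summed to 2691 to 6305 FPKM in LCM_GFP, 9363 to 11625 in FACS_GFP and 10966 to 14212 in FACS_WT. Markers of other cells were also present in LCM_GFP, where 12 oligodendrocyte markers summed to 2969 to 8143 FPKM against 22.1 to 33.6 in the sorted libraries, and 12 neuron markers to 1227 to 3390 against 2.39 to 11.1. There 10 astrocyte markers summed to 472 to 992 FPKM against 21.5 to 33.1, and 10 endothelium markers to 145 to 426 against 63.4 to 75.6. Sums for 9 erythroid genes were 3652, 40.9, 1819 and 0.449 FPKM in the 4 LCM_GFP libraries in order. The laser-captured library 1, labelled female, held the Y chromosome gene Uty at 15.6 FPKM beside Xist at 14.0. The sorted GFP library 2, labelled male, held Xist, made from the inactive X, at 3.91 FPKM beside Uty at 28.5.

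A microRNA is made in steps. A long primary transcript folds into a hairpin, Drosha with Dgcr8 cuts the hairpin out in the nucleus, Xpo5 exports it, and Dicer1 cuts it to a short duplex of which 1 strand is loaded into an Argonaute protein. The seed, bases 2 to 8 of the mature strand, pairs with target messenger RNAs. Hairpins sit in introns or exons of host genes or in transcripts of their own, often in clusters, and an RNA library of long fragments reads the locus and not the mature microRNA.

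The hairpins are shown because their length sets the scale of every value below. RefSeq sequences (GRCm38.p6) matched 6 of the 7 members by symbol, and in all 6 the hairpin had the same length as the deposited mm9 locus. Mir1b is named only. The Mir546 locus overlaps an untranslated region, and only its mature strand is shown. The strand and GRCm38 positions are chr2:38852735-38852810 (plus) for Mir181a-2, chr8:84208815-84208921 (plus) for Mir24-2, chr1:185313581-185313692 (plus) for Mir215, chr13:58392779-58392886 (minus) for Mir7-1 and chr2:155356817-155356925 (plus) for Mir695. Capitals mark the mature arms, 5′ to 3′.
Mir181a-2: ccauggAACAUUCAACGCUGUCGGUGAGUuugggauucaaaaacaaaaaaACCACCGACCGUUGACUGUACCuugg
Mir24-2: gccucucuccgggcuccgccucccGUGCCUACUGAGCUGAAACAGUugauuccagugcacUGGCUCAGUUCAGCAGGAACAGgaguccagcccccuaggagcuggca
Mir215: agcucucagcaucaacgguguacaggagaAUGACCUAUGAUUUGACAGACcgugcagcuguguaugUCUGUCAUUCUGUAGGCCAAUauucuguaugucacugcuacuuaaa
Mir7-1: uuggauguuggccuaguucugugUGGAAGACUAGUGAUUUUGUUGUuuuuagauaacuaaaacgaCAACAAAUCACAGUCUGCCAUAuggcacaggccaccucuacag
Mir695: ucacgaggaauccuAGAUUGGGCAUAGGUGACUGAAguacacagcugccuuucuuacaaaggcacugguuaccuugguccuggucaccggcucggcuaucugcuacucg

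These 5 hairpins are 76, 107, 112, 108 and 109 bases long with a GC content of 46.1%, 61.7%, 43.8%, 41.7% and 52.3%, against medians of 79 bases and 51.7% over the 1005 mouse hairpins of RefSeq. The mature arms are shown with the seed in capitals, to place the members in families.
mmu-miR-181a-5p: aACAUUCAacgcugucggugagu
mmu-miR-181a-2-3p: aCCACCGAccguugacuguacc
mmu-miR-24-2-5p: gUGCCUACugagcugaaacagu
mmu-miR-24-3p: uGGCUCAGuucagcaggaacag
mmu-miR-546: aUGGUGGCacggaguc
mmu-miR-215-5p: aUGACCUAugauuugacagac
mmu-miR-215-3p: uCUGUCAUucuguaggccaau
mmu-miR-7a-1-3p: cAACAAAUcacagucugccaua
mmu-miR-7a-5p: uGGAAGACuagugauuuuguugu
mmu-miR-695: aGAUUGGGcauaggugacugaa

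The 10 arms, of 6 members, carried 10 different seeds. Other loci with the same seed as a member had 8 entries in the table: Mir181a-1, Mir181b-1, Mir181b-2, Mir181c and Mir181d for miR-181a-5p, Mir192 for miR-215-5p, and Mir7-2 and Mir7b for miR-7a-5p. All 8 were listed at 0 in all 10 libraries. For miR-24-2-5p and miR-24-3p, 1 and 5 other loci share the seed, but no entry matched them by symbol, so they could not be looked up.

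Of the 663 microRNA entries, 633 were listed at 0 in every library, 20 reached 1 FPKM in at least 1 library and 10 lay above 0 without reaching 1. Those that reached 1 FPKM were mostly the longer loci. Of 101 entries of 107 bases or more 17 did so, against 3 of 562 shorter entries. The length of 107 bases was chosen after the values were seen, as that of the second shortest member, and the median entry was 85 bases long. Among the members only Mir181a-2, at 76 bases, was shorter than 107.

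The values of short loci fell on steps. Among the entries of 121 bases other than Mir546, the most frequent value in a library lay between 35.5 and 98.0 FPKM. In the sorted wild-type library 2 it was 44.5 FPKM, and all 16 such entries at 1 FPKM or more lay within 0.05 of a whole multiple of it. In the laser-captured library 3 the step was 49.5 FPKM, with 11 of 12 entries on a multiple. Other libraries had every such entry on a multiple, except for 1 of 11 in the sorted GFP library 2 and 1 of 17 in the sorted GFP library 3. The smallest value of at least 1 FPKM in any library grew as loci shortened: 12 FPKM for loci of 120 to 129 bases, 57.5 for 110 to 119, 124 for 100 to 109, 1348 for 80 to 99 and 3909 for 60 to 79. Apart from 5 values of Mir546, of which the highest was 5.81e-07 FPKM, members stood either at 0 or at 38.1 FPKM and more. At 121 bases the step also differed between the groups. It was 37.6 to 57.6 FPKM in LCM_GFP, 78.8 to 98.0 in FACS_GFP and 35.5 to 44.5 in FACS_WT. At that length the same number of steps gives a higher FPKM in every FACS_GFP library. At 102 bases this did not hold for every library. There AC102320.1 stood at 510 FPKM in sorted GFP library 3 and at 533 in sorted wild-type library 2, values shared with AL773580.1 and BX000454.1. Because the step changes with length, FPKM of members of different length are not comparable as levels of RNA, and a 0 can also be a failed estimate.

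**Figure D1:**
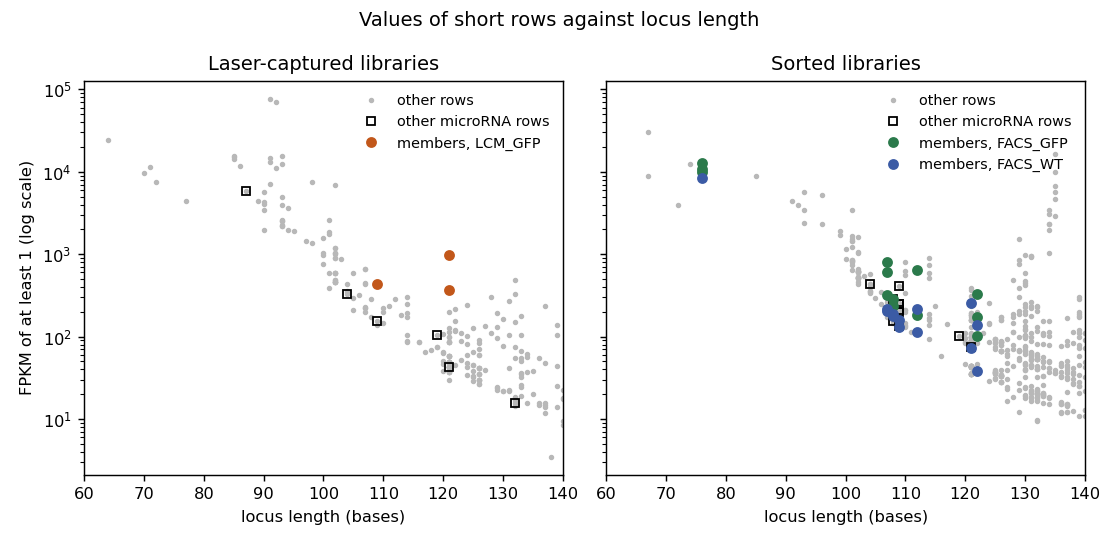
FPKM of at least 1 (log axis) against locus length in bases for all entries of 60 to 140 bases, with 1 point for each entry and library, in the 4 laser-captured (left) and the 6 sorted libraries (right). The lowest points fall steeply with length, from 3909 FPKM at 60 to 79 bases to 12 at 120 to 129 bases, and the coloured members lie on or above this lower edge.

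Of the 29 member values of at least 1 FPKM, 16 could be set beside another entry of the same length in the same library. Of these, 6 lay within 5% of the smallest such value and 3 lay over 5 times above it. All 3 belonged to Mir546.

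The largest values were those of Mir181a-2, a precursor of miR-181a, which is known from lymphocyte development and is also made in brain (ENSMUSG00000065423, chromosome 2, 38708255 to 38708330 in mm9). It stood at 12696, 10777 and 9897 FPKM in the sorted GFP libraries 1 to 3. In the sorted wild-type group library 1 stood at 8497 FPKM and libraries 2 and 3 at 0. All 4 laser-captured libraries were listed at 0. The sorted GFP libraries were thus all above the other 2 groups, and wild-type library 1 stood apart from its group. No other entry of 76 bases reached 1 FPKM in the 4 libraries where it did. The step at that length is thus unknown, and whether 9897 and 8497 FPKM differ in number of steps cannot be told. In GENCODE M21 (GRCm38) the hairpin lies in an intron of Nr6a1, a nuclear receptor gene, on the opposite strand. The strand setting of the counting is not stated in the sources used here, so reads of a hairpin's transcript and of a gene on the other strand cannot be told apart. Its partner Mir181b-2, 1019 bases away and 89 bases long, was listed at 0 in all 10 libraries.

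Mir24-2 is the last hairpin of a cluster with Mir23a and Mir27a that is well known in myeloid cells (ENSMUSG00000065541, chromosome 8, 86732714 to 86732820 in mm9). It stood at 608, 319 and 804 FPKM in the sorted GFP libraries, at 205, 215 and 0 in the sorted wild-type libraries, and at 0 in all 4 laser-captured libraries. Every sorted GFP library was above every wild-type library. Beside the smallest other entry of 107 bases in the same library, the sorted GFP values were 2.06, 1.03 and 3.10 times as large, and the value in wild-type library 2 was 1.01 times as large. Sorted GFP library 2 and wild-type library 2 thus both lay within 5% of the smallest other value at that length, at 319 and 215 FPKM. Mir27a and Mir23a, 56 and 222 bases away and 87 and 75 bases long, were listed at 0 in all 10 libraries. In GRCm38 the hairpin overlaps in part Mir3074-2 on the opposite strand and the exon of Gm26532, a long noncoding RNA, on the same strand.

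Mir1b bears the name of the miR-1 family of muscle (ENSMUSG00000080662, chromosome 18, 10785444 to 10785565 in mm9). It stood at 103, 332 and 175 FPKM in the sorted GFP libraries, at 0, 140 and 38.1 in the sorted wild-type libraries, and at 0 in all 4 laser-captured libraries. The 2 sorted groups overlapped. Wild-type library 3 was 1.02 times the smallest other value at 122 bases. The locus lies in an intron of Mib1, a ubiquitin ligase of Notch signalling, on the same strand, and overlaps in part Mir1a-2 on the opposite strand. Its neighbour Mir133a-1, 2460 bases away, was listed at 0 in all 10 libraries.

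Mir215 encodes a microRNA of the miR-192 seed family, known from gut epithelium and as a target of p53 (ENSMUSG00000065562, chromosome 1, 187137460 to 187137571 in mm9). It stood at 184, 0 and 643 FPKM in the sorted GFP libraries, at 217, 114 and 0 in the sorted wild-type libraries, and at 0 in all 4 laser-captured libraries. Its cluster partner Mir194-1, 195 bases away and 67 bases long, was listed at 0 throughout. In GRCm38 the hairpin overlaps an exon of the noncoding antisense gene 2010103J01Rik. It lies in an intron of Iars2, the mitochondrial isoleucine tRNA ligase, on the opposite strand.

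Mir7-1 encodes miR-7a, a microRNA of neurons and of hormone-secreting cells (ENSMUSG00000065434, chromosome 13, 58494140 to 58494247 in mm9). It stood at 0, 283 and 233 FPKM in the sorted GFP libraries, at 179, 189 and 0 in the sorted wild-type libraries, and at 0 in all 4 laser-captured libraries. The value in sorted GFP library 2 was within 5% of that of Mir1966, the other entry of 108 bases with a value there (283 FPKM). The hairpin lies in an intron of Hnrnpk, an RNA-binding protein, on the same strand.

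The other two members had values in laser-captured libraries. Mir546 (ENSMUSG00000072837, chromosome 10, 126435496 to 126435616 in mm9) had 985 FPKM in LCM_GFP library 2, 366 FPKM in library 3, and less than 1 in libraries 1 and 4. It stood at 252 and 72.8 FPKM in the sorted wild-type libraries 1 and 3, below 1 in wild-type library 2 and below 1 in all 3 sorted GFP libraries. In units of the step for 121 bases these 4 values were 23.2, 7.39, 5.85 and 2.05, and only the last was within 0.05 of a whole number. In GRCm38 the locus lies whole within the gene Ctdsp2, a phosphatase of RNA polymerase II, on the same strand. It overlaps an untranslated region of that gene, so reads of the host message can overlap it. Its neighbour Mir26a-2, 2826 bases away, was listed at 0 throughout.

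Mir695 (ENSMUSG00000076216, chromosome 2, 155182553 to 155182661 in mm9) stood at 430 FPKM in the laser-captured library 4 and at 0 in the other 3. It stood at 161 and 130 FPKM in the sorted wild-type libraries 2 and 3, at 0 in wild-type library 1 and at 0 in all 3 sorted GFP libraries. The locus lies in an intron of Pigu, a subunit of the GPI transamidase, on the opposite strand.

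**Figure D2:**
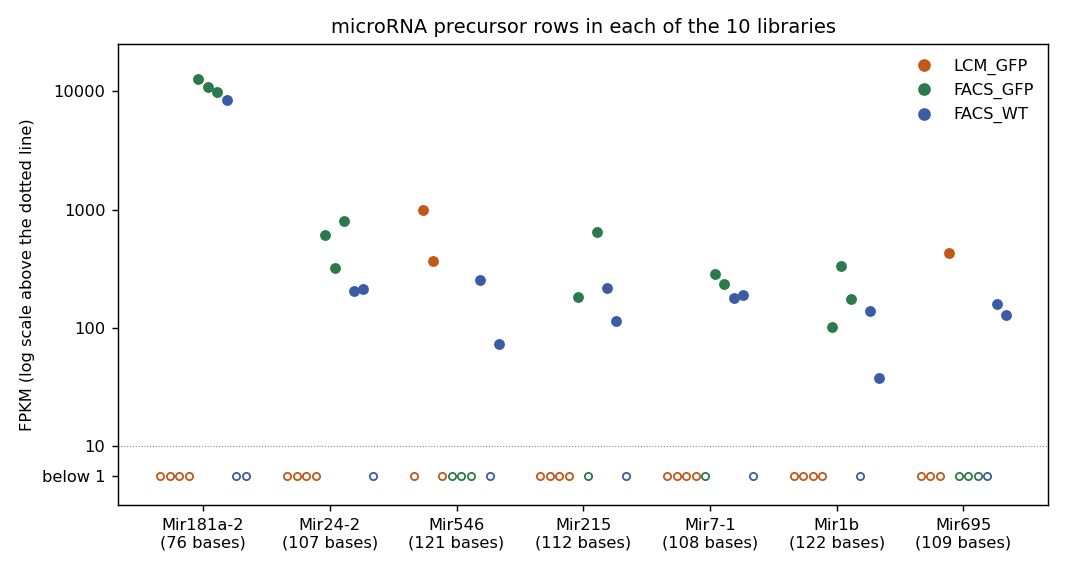
FPKM of the 7 members (log axis above the dotted line) in each of the 10 libraries, coloured by group, with open circles for values below 1. For 5 members all 4 laser-captured libraries are open circles, while Mir546 and Mir695 have no filled circle in the sorted GFP group.

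Over the 7 members and 10 libraries, 29 of 70 values reached 1 FPKM, 36 were listed at 0 and 5, all of Mir546, lay between. Ranked by the third highest of its 10 values, Mir695 was the lowest member with 130 FPKM, followed by Mir1b with 140 and Mir215 with 184. The nearest entries outside the threshold were far below it. For Mir706, Mir30d and Mir155 the third highest values were 0.309, 0.107 and 0.0345 FPKM, and their loci of 2950, 22194 and 2220 bases are much longer than a hairpin.

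A further 13 microRNA entries reached 1 FPKM in only 1 or 2 libraries. Among them the largest value was that of Mir5109, 87 bases long, at 5791 FPKM in the laser-captured library 3. Counted over all 663 names, 1, 5, 3 and 1 entries reached 1 FPKM in LCM_GFP libraries 1 to 4, 6, 6 and 10 in the sorted GFP libraries, and 5 in each sorted wild-type library. The 20 entries whose names begin with mmu-mir are in neither this count nor the next, so the counts depend on that choice of names. An mmu-mir-1194 entry of 121 bases (ENSMUSG00000080530), left out in this way, stood at 128 and 99.0 FPKM in LCM_GFP libraries 2 and 3. It stood at 366, 98.0 and 315 FPKM in the sorted GFP libraries and at 43.1 and 44.5 in sorted wild-type libraries 1 and 2. The counts by microRNA name met at 5 between the isolation methods, in laser-captured library 2 and the sorted wild-type libraries. The number for other short entries also overlapped. Of 2498 entries of 76 to 122 bases that are no microRNAs by name 26 to 43 reached 1 FPKM in the laser-captured libraries and 26 to 39 in the sorted libraries. Of the 35 such entries that met the same threshold, 31 stood at 1 FPKM or more in at least 1 laser-captured library, as did 2 of the 7 members. The other 4 were below 1 in every laser-captured library. Among them was SNORA65 (114 bases), at 161 to 904 FPKM in the sorted libraries. Of longer small RNAs, U11 (134 bases) and Snord118 (135 bases) were also below 1 in every laser-captured library. They stood at 1035 to 3440 and 2878 to 16244 FPKM in the sorted libraries. Values in sorted libraries alone were thus not particular to microRNA loci. No test was run on these counts, since the members were chosen by these values.

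**Figure D3:**
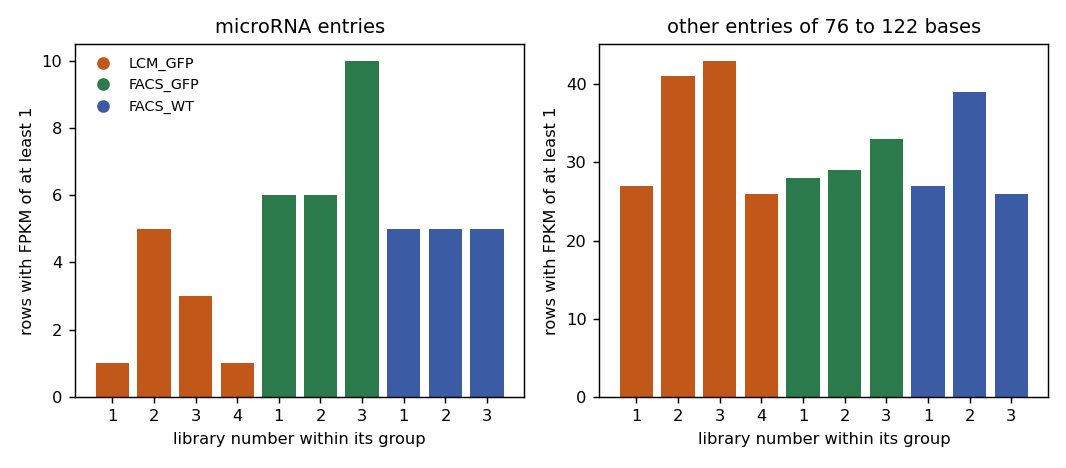
Number of entries with FPKM of at least 1 in each library, for microRNA names (left) and for other entries of 76 to 122 bases (right), with bars coloured by group. Laser-captured libraries held 1 to 5 microRNA entries and sorted libraries 5 to 10, so the 2 ranges meet at 5. The other short entries numbered 26 to 43 and 26 to 39. Entries with names beginning mmu-mir are in neither panel.

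MicroRNAs known for cell types of the brain were mostly listed at 0. Of 19 entries on a list of microRNAs of myeloid cells Mir24-2 was the only one to reach 1 FPKM. The list holds Mir181a-1 and Mir181b-1 but not Mir181a-2, the highest member, which yields the same miR-181a-5p as Mir181a-1. Mir142, a marker of blood-lineage cells (64 bases), Mir223 of myeloid cells (110 bases) and Mir146, an inhibitor of inflammatory signalling (65 bases), were listed at 0 in all 10 libraries. For Mir155, induced in activated macrophages, the entry of 65 bases was also listed at 0 throughout. Its entry of 2220 bases, much longer than a hairpin, did not exceed 0.0591 FPKM. None of 22 neuronal, 4 oligodendrocyte, 3 vascular or 3 erythroid microRNA entries reached 1 FPKM in any library. That holds also for the laser-captured libraries with high sums of neuron and oligodendrocyte markers. With median lengths of 87, 90, 101.5, 73 and 72 bases in these 5 lists, the step described above applies to most of them.

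The 6 entries whose loci contain a member were measured in every library, and none passed the test between groups. No entry contains Mir24-2. Hnrnpk, which holds Mir7-1, stood at 988, 334, 432 and 336 FPKM in LCM_GFP, at 938 ± 25.5 (SD, n = 3) in the sorted GFP libraries and at 890 ± 15.1 (SD, n = 3) in the sorted wild-type libraries. The laser-captured library 1 was above all sorted libraries and the other 3 were below them. Mib1, which holds Mir1b, stood at 20.2, 2.84, 8.64 and 11.1 FPKM against 18.7 ± 1.82 (SD, n = 3) and 18.4 ± 1.96 (SD, n = 3). Iars2 stood at 15.5 ± 9.84 (SD, n = 4), 12.6 ± 0.520 (SD, n = 3) and 11.4 ± 0.273 (SD, n = 3) in LCM_GFP, FACS_GFP and FACS_WT. Ctdsp2 stood at 5.86, 19.2, 5.87 and 7.22 FPKM in LCM_GFP, so that library 2, in which Mir546 was highest, was also highest for its host, while library 3 was not. The sorted groups had Ctdsp2 at 7.81 ± 0.436 (SD, n = 3) and 8.39 ± 1.88 (SD, n = 3). Pigu stood at 8.56 FPKM, its lowest value, in the laser-captured library 4, the one with Mir695, and at 13.7 to 36.8 in the other 3. Nr6a1 stood at 7.53, 15.0, 0.0521 and 0.718 FPKM in LCM_GFP against 2.05 ± 0.478 (SD, n = 3) and 1.33 ± 0.158 (SD, n = 3). With limma, a linear model with moderated variances fitted over all tested entries, none of these 6 host entries was called in any of the 3 comparisons. The lowest adjusted p was 0.0867, for Hnrnpk between LCM_GFP and FACS_GFP.

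**Figure D4:**
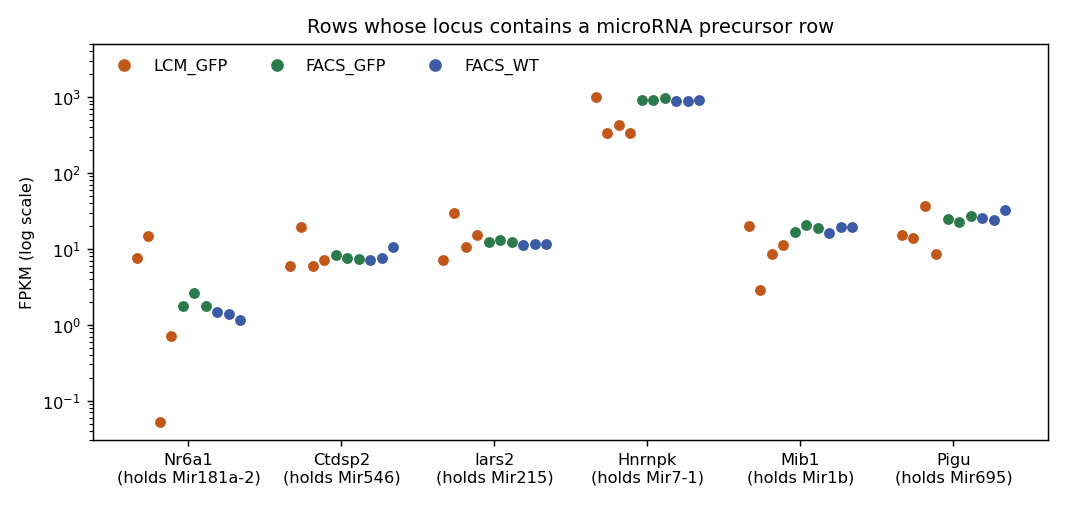
FPKM (log axis) of the 6 entries whose locus contains a member, in each of the 10 libraries and coloured by group. The sorted libraries lie close together and the laser-captured libraries spread around them, with Nr6a1 from 0.0521 to 15.0 FPKM.

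The comparison of LCM_GFP with FACS_GFP addresses the difference between the isolation methods within GFP expressing mice. The test took entries that reached 1 FPKM in 3 or more of the 7 libraries, which 3 members did, all 3 through the sorted libraries alone. Mir181a-2, Mir24-2 and Mir1b were lower in LCM_GFP (limma adjusted p = 4.79e-07, 2.97e-05 and 8.63e-05), and the groups did not overlap. That lack of overlap follows from the filter, since these members were at 0 throughout LCM_GFP. No member was higher. Among all 13403 entries tested 32.1% were called, 19.6% lower and 12.5% higher. Entries at 0 in every laser-captured library could be tested only by being high in all 3 sorted GFP libraries, so the 3 calls carry no more than the values already given, and no fold is given against a group listed at 0. These members missed the filter when any 1 sorted GFP library was left out. Leaving out laser-captured libraries cannot move a group that is at 0 throughout. Fewer cells of a type and less RNA per cell cannot be told apart here. The part of RNA from oligodendrocytes, neurons and other cells in this difference was not tested.

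The comparison of LCM_GFP with FACS_WT differs in method, in GFP and in sex (3 of 4 LCM_GFP samples are labelled female, all FACS_WT samples male), and in it 2 members were tested. Mir546 and Mir695 had log2(FPKM + 1) differences of −0.11 (SE 2.95) and −2.60 (SE 2.58), with limma adjusted p = 0.980 and 0.466, and the groups overlapped for both. The difference of Mir546 changed sign in some alternatives, so no direction is given for it. No member was called, and none had an unadjusted p under 0.05, while 31.4% of the 13415 entries tested were called (12.3% higher and 19.1% lower in LCM_GFP). With sex as a covariate the comparison rests on the 1 LCM_GFP library labelled male, so no shares are given for that fit. This comparison shares its laser-captured libraries with the one above.

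The comparison of FACS_GFP with FACS_WT holds the method constant but not the sex of the mice, and 5 members were tested. None was called and none had an unadjusted p under 0.05, against 0.11% of 11814 entries called (0.0339% higher and 0.0762% lower in FACS_GFP). Mir181a-2 had the largest difference, 9.08 (SE 4.26) on the log2(FPKM + 1) scale with limma adjusted p = 0.453. That it was not called rests on 1 library. Without the sorted wild-type library 1 the other 2 wild-type libraries are both at 0, and the entry is called. It is then tested only through the sorted GFP libraries where it is high, so this call carries no more than the values already given. Mir24-2 and Mir1b had differences of 3.93 (SE 2.55) and 3.37 (SE 2.15), with limma adjusted p = 0.555 and 0.550. Mir215 and Mir7-1 had 0.75 (SE 3.69) and 0.32 (SE 3.59), with limma adjusted p = 0.941 and 0.974, and both differences changed sign when some single libraries were left out. Every sorted GFP library was above every wild-type library for Mir181a-2 and Mir24-2, and the groups overlapped for the other 3. How many of all 11814 entries separate in this way was not counted, so the separation is a description only. For Mir24-2 this separation includes the difference in step between the groups, since its values in library 2 of each group were 1.03 and 1.01 times the smallest other value of that length. For Mir181a-2 no other entry gave the step at its length, so the same could not be checked. With standard errors of 2.15 to 4.26 log2 units, differences of several log2 units in either direction were not detectable.

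Most genes of microRNA processing and action did not pass the test between LCM_GFP and FACS_GFP. Of 35 listed entries 32 were tested, 5 fell and none rose, with 7 at an unadjusted p under 0.05. Over all entries tested 19.6% fell and 12.5% rose, and the median log2 difference of −0.53 in the list lay beside −0.60 over all entries. The share of all entries at an unadjusted p under 0.05 was not counted, so the 7 cannot be set beside it. Drosha, the nuclear nuclease, stood at 36.0, 19.7, 25.4 and 40.4 FPKM in LCM_GFP against 18.8 ± 3.46 (SD, n = 3) in FACS_GFP (limma adjusted p = 0.262). Its partner Dgcr8 stood at 11.9, 13.6, 2.59 and 21.7 against 17.2 ± 0.909 (SD, n = 3), with adjusted p = 0.424 by limma. Xpo5, the exporter, stood at 55.6 in the laser-captured library 3 and at 5.77 to 11.8 in the other 3, against 21.3 ± 0.945 (SD, n = 3), with limma adjusted p = 0.602. Dicer1 stood at 35.1 ± 14.3 (SD, n = 4) against 23.0 ± 2.07 (SD, n = 3), with limma adjusted p = 0.374. The groups overlapped for all 4 genes, and none of the 4 passed the test.

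Among the Argonautes, listed under their older symbols, Eif2c4 (Ago4) fell to 0.227, 2.03, 0.909 and 0.638 FPKM from 4.96 ± 0.578 (SD, n = 3), a log2 difference of −1.68 (limma adjusted p = 0.0178). Eif2c4 met the filter mainly through the sorted GFP libraries, where it is high. Eif2c1 (Ago1) stood at 18.7 ± 7.06 (SD, n = 4) against 32.7 ± 1.03 (SD, n = 3) and Eif2c3 (Ago3) at 15.5 ± 12.1 (SD, n = 4) against 19.0 ± 0.990 (SD, n = 3), and neither passed the test. Eif2c2 (Ago2), the slicing Argonaute, had 2 entries, at 6.09 ± 3.45 (SD, n = 4) against 4.37 ± 0.469 (SD, n = 3) and at 1.94 ± 1.02 (SD, n = 4) against 0.326 ± 0.0909 (SD, n = 3), and reads could be split between them. The other 4 that fell were Ddx5, a helicase of the Drosha complex, from 449 ± 42.3 (SD, n = 3) to 163 ± 41.9 FPKM (SD, n = 4), Zcchc6 and Zcchc11, which add uridines to let-7 precursors, from 82.1 ± 4.89 and 98.0 ± 8.61 (SD, n = 3) to 34.7 ± 7.52 and 43.6 ± 14.8 (SD, n = 4), and Tsnax, a subunit of the nuclease C3PO, from 3.25 ± 0.113 (SD, n = 3) to 1.07 ± 0.299 (SD, n = 4). Their log2 differences were −1.49, −1.24, −1.21 and −1.05 with limma adjusted p = 0.00594, 0.0224, 0.0367 and 0.0385. Median ratio scaling moved the median over all entries from −0.60 to −0.14 and the shares called to 13.9% higher and 10.1% lower. Under it Ddx5 was the only pathway entry called lower and the second entry of Eif2c2 was called higher. That Eif2c2 entry was below 1 FPKM in every sorted GFP library. It met the filter only through laser-captured libraries where it is high, so this call carries no more than its values. Without the sorted GFP library 1, 2 or 3 the count of lower pathway entries was 0, 1 and 0, and the share of all entries called lower was 2.46%, 2.59% and 2.39%. Oligodendrocyte, neuron and astrocyte markers were high in all 4 laser-captured libraries. The part of RNA from these and other cells in these differences was not tested.

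**Figure D5:**
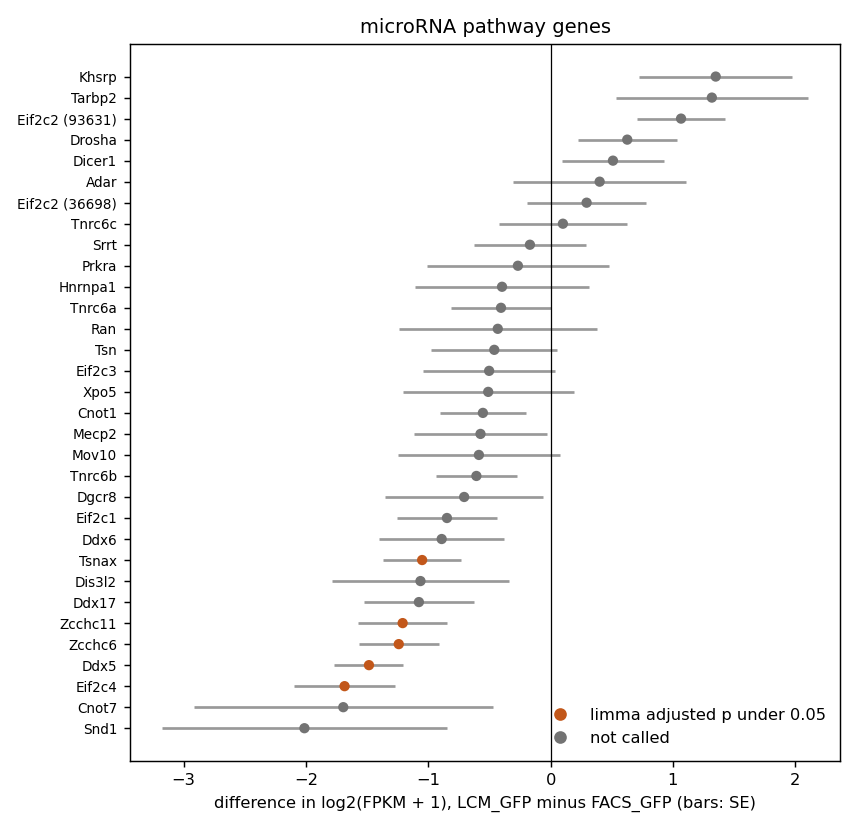
Difference in log2(FPKM + 1) between LCM_GFP and FACS_GFP, with SE bars, for the 32 tested microRNA pathway entries, ordered by difference. The 5 called entries, from Eif2c4 at −1.68 to Tsnax at −1.05, are all lower in LCM_GFP, and the Eif2c2 entries carry the last digits of their gene IDs.

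Lin28a, Lin28b and Trim71, regulators of let-7 and of early development, missed the filter and are named after their values were seen. Lin28b had 7.68 FPKM in LCM_GFP library 1, 2.51 in library 4 and 0.140 or less in the other 8 libraries. Lin28a had 2.93 FPKM in LCM_GFP library 1 and 2.89 in library 3, those with the high erythroid sums, and Trim71 had 11.0 in library 1. Against FACS_WT, which is compared with the same laser-captured libraries, 3 of 32 tested pathway entries fell in LCM_GFP, where 19.1% of all entries fell, with limma adjusted p = 0.00632 for Ddx5, 0.0333 for Zcchc6 and 0.0468 for Eif2c4. Between the sorted groups no pathway entry was called by limma of 31 tested, where 0.11% of all entries were called. Of the 31, 6 had an unadjusted p under 0.05, and the share of all entries under it was not counted.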

How the data were processed

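Paired-end RNA-seq of 10 amplified libraries was processed by the authors to FPKM per gene; per the submitters' processing notes, CASAVA 1.8.2, TopHat2 2.0.4, Bowtie2 2.0.0, Cufflinks 2.0.2 and mm9 were used. The annotation release and strand setting are not given in the sources used here. The deposited FPKM were used as given. FPKM divides by an effective length, so short loci gain large values from single fragments, and read depth is unknown.

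Entries that reached an FPKM of 1 in 3 or more compared libraries were tested with limma 3.58.1 (R 4.3.3, statmod 1.5.0, trend and robust) on log2(FPKM + 1), with the 2 compared groups only and Benjamini-Hochberg adjustment over all entries tested, called at adjusted p under 0.05. The fit was tested on simulated data. Fold changes of low genes are understated on this scale. Locus starts are counted from 1.

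Members and gene lists were chosen with earlier results of these data known. Named were members on cell-type lists, the 10 highest, called members, the 3 nearest the threshold on each side, loci sharing a seed or within 10000 bases, hosts, core and called pathway genes. Alternatives covered pseudocount, filter, scaling, moderation, block, sex and left-out libraries. Figures used matplotlib 3.10.9 under Python 3.11.15.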

Additional observations from a re-analysis of the deposited data

Results flagged for a closer look

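Dixon's check for 4 samples was made in the laser-captured group, the only one large enough. Of 22 named entries, 5 had 1 library whose gap to the next, divided by the range of the group, exceeded the critical value. The 22 include the 5 members at 0 in all 4 laser-captured libraries, which could not be flagged. For normally distributed values chance flags about 1 in 20 such groups, but FPKM are skewed, and the rate for these data was not measured. Mir695 stood at 430 FPKM in library 4 with the other 3 at 0, which fixes its ratio at 1. Its other values came from the sorted wild-type group. Ctdsp2, the host of Mir546, stood at 19.2 FPKM in library 2 with the next at 7.22. Hnrnpk, the host of Mir7-1, stood at 988 FPKM in library 1 with the next at 432. Eif2c3 stood at 33.7 FPKM in library 1 with the next at 10.4, and Xpo5 at 55.6 FPKM in library 3 with the next at 11.8.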

How the results depend on the processing

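The count of 3 precursor loci lower in LCM_GFP than in FACS_GFP cannot bear on stability, since these loci are at 0 throughout LCM_GFP and were tested only through the 3 sorted GFP libraries. It was 3 in every alternative that could be fitted, the replicate block included. Precursor loci higher in FACS_GFP than FACS_WT numbered 0, with a range of 0 to 1 when 1 library was left out. The 1 was Mir181a-2, called without the sorted wild-type library 1, where 0.0429% of all entries were higher. That call is made against wild-type libraries that are all at 0, so it cannot bear on stability either. The differences of 3 uncalled members changed sign. Mir546 (LCM_GFP minus FACS_WT, −0.11) had 0.25 with a pseudocount of 5, 0.23 under median ratio scaling, 1.42 with the replicate block, 5.21 with sex as a covariate, 0.24 with laser-captured libraries 2 and 4, and −2.48 to 1.51 with 1 library left out (0.62 without sorted wild-type library 3). Mir215 (FACS_GFP minus FACS_WT, 0.75) had −4.87 with sex as a covariate and −1.69 to 3.56 with 1 library left out (−0.20 without sorted GFP library 1 and −1.11 without library 3). Mir7-1 (0.32) had −2.19 to 2.99 (−1.09 without sorted GFP library 2 and −0.95 without library 3). Since FACS_WT is all male, these fits with sex as a covariate rest on the 1 library labelled male in LCM_GFP or in FACS_GFP. Among uncalled pathway genes, Eif2c3 had 0.018 and Xpo5 0.011 under median ratio scaling, Dgcr8 had 0.0032 with laser-captured libraries 2 and 4, and the first entry of Eif2c2 had −0.0018 to 0.48 with 1 library left out.

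Pathway genes lower in LCM_GFP than FACS_GFP numbered 5, where 19.6% of all entries were lower. They numbered 1 under median ratio scaling (10.1% of all entries), 3 under quantile normalization (13.4%), 3 with the replicate block (16.9%), 3 with sex as a covariate (16%) and 11 of 31 with laser-captured libraries 2 and 4 (35.4%). Leaving out 1 library gave 0 (without sorted GFP library 1 or 3, 2.46% and 2.39% of all entries) to 7. The 7, of 31 tested, came without laser-captured library 1, where 26.1% of all entries were lower. Pathway genes higher numbered 0, where 12.5% of all entries were higher, and 1 under median ratio scaling (13.9%). They numbered 0 to 1 when 1 library was left out (1 without the laser-captured library 3, where 12.7% of all entries were higher). The cause of these shifts was not tested. Of 25 alternatives the call was lost in 13 for Tsnax, 14 for Zcchc11, 8 each for Zcchc6 and Eif2c4 and 2 for Ddx5. A call was gained in 3 for Eif2c3, 1 for Xpo5 and 1 for Eif2c1, and in 3 of the 20 in which the second entry of Eif2c2 was tested. That entry was below 1 FPKM in every sorted GFP library, so its calls cannot bear on stability. No called difference changed sign in any alternative run. The settings that left out 1 library with the tested entries kept were chosen after seeing the data. Same-numbered libraries of LCM_GFP and FACS_GFP did not deviate together (correlations −0.0185, 0.0133 and −0.0352 over entries), those of FACS_GFP and FACS_WT had 0.141, 0.0102 and 0.214, and the labels give the numbers no meaning. No entry of 80 to 99 bases had a value between 1 and 1348 FPKM.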
